A study of Homo sapiens with 4 samples.

Results

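The plastins are a family of 3 human genes, LCP1, PLS1 and PLS3, and all 3 were found by symbol among the 53826 entities listed for each of 4 libraries of PK-1, a human pancreatic cancer cell line. The family was chosen from the readout of these libraries, because LCP1 had the largest increase between the stable libraries among entities at TPM 5 or more in both. Its value in that comparison, and all that follows from it, is therefore given as a description. TPM corrects read numbers for transcript length and for the size of the library, so levels of different genes can be set side by side.

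The study compared SPRR1A-overexpressing PK-1 cells with controls, to look for changes in gene expression caused by SPRR1A. In the stable model, cells carried a pMXs retroviral vector encoding either SPRR1A with a FLAG tag (stable SPRR1A) or the red fluorescent protein DsRed (stable DsRed). In the transient model, cells were transfected with a pCAG plasmid encoding either SPRR1A with a FLAG tag (transient SPRR1A) or green fluorescent protein (transient GFP). There was 1 library per condition, so replicate error is unknown and nothing below could be tested. The methods describe infection of the cells with virus and no cloning step, and call the DsRed cells a population.

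Plastins cross-link actin filaments into tight parallel bundles. Each protein has a pair of calcium-binding EF-hands at its amino end and a pair of actin-binding domains, each built of calponin homology domains in tandem. LCP1 encodes L-plastin, which is normally found in leukocytes and is often switched on in carcinoma cells. PLS1 encodes plastin 1 (I-plastin), a bundler of the microvilli of the intestinal brush border and of the stereocilia of hair cells. PLS3 encodes T-plastin, which is expressed in most solid tissues.

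The 3 genes lie on different chromosomes of GRCh38 and have a like structure. LCP1 is at chr13:46125923-46182177 on the minus strand, PLS1 at chr3:142596393-142713664 and PLS3 at chrX:115561174-115650861, both on the plus strand. In GENCODE 44 the canonical transcript of each gene has 16 exons, of which 15 hold coding sequence, and encodes 627 residues for LCP1, 629 for PLS1 and 630 for PLS3. The deposited values are per gene, so the 8 annotated transcripts of LCP1, 12 of PLS1 and 9 of PLS3 were not separated.

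The first 60 coding bases of each gene are printed because L-plastin is regulated near its amino end, where it is known to be phosphorylated on a serine. Capitals mark codon 5, counted from the start codon of each gene, which encodes serine in LCP1, threonine in PLS1 and alanine in PLS3. The printed sequences are not aligned with one another, so the marked codons are not shown to be matching positions.
LCP1: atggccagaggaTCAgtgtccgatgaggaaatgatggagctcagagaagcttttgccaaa
PLS1: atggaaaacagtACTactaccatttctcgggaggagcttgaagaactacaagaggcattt
PLS3: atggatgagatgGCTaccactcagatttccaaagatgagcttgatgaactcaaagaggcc

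Over the whole coding sequence, 74.2% of 1884 aligned bases were identical between LCP1 and PLS3, 69.2% of 1881 between LCP1 and PLS1, and 69.8% of 1887 between PLS1 and PLS3. The longest exact run shared between transcripts of any pair was 23 nt for LCP1 and PLS1, 20 nt for LCP1 and PLS3, and 26 nt for PLS1 and PLS3. None of the 50-nt words of the canonical LCP1 transcript (3594 words) or of PLS3 (3239 words) occurred in a GENCODE transcript of another gene. For PLS1, 6 of 3651 words (0.164%) occurred in the pseudogene PLS1P1.

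The bases before the first RefSeq start of each gene are printed to show their CpG content. Whether that content bears on the levels was not tested. Capitals mark each CpG (C followed by G). The LCP1 sequence, chr13:46182226-46182427 on the minus strand of GRCh38.p14, ends where a GENCODE exon of LCP1 itself begins. That exon holds the last 48 of the 250 bases before the RefSeq start, which are counted below but not printed. PLS1 is shown for chr3:142596143-142596392 and PLS3 for chrX:115560924-115561173, both on the plus strand.
LCP1: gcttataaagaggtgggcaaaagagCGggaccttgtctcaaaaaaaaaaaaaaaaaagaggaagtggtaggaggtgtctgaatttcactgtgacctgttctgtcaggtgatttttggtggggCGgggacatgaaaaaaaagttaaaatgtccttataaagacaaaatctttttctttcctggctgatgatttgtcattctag
PLS1: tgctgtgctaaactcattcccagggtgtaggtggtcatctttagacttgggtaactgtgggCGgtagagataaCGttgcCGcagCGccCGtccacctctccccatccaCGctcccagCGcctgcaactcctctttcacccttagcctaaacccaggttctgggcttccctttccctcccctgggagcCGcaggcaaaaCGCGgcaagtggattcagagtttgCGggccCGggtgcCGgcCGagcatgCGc
PLS3: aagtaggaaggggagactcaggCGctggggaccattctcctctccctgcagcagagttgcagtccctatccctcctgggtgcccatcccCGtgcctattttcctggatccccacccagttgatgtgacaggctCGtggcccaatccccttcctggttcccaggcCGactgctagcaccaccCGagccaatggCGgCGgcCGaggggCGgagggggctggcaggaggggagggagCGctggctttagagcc

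In the 250 bases before the start, LCP1 had 2 CpG and a GC content of 41.2%, PLS1 had 15 CpG and 60.8%, and PLS3 had 10 CpG and 65.2%. Among the 27303 RefSeq genes with such a window, 23.6% had 2 CpG or fewer, 42.5% had 15 or more, and the median was 10. The letters GGGCGG, the core of a site for SP-family factors, occurred 1 time in each of the 3 windows on either strand, and in 42.2% of all windows. The letters TGANTCA, the AP-1 site, occurred in none of the 3 and in 6.57% of all windows. RefSeq lists 1 start for LCP1, 3 for PLS1 and 2 for PLS3, and these could not be told apart in gene-level values.

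PLS3 was the most abundant plastin in every library, followed by LCP1 and then PLS1. No spread over replicates exists against which to set the gaps between them.

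**Figure D1:**
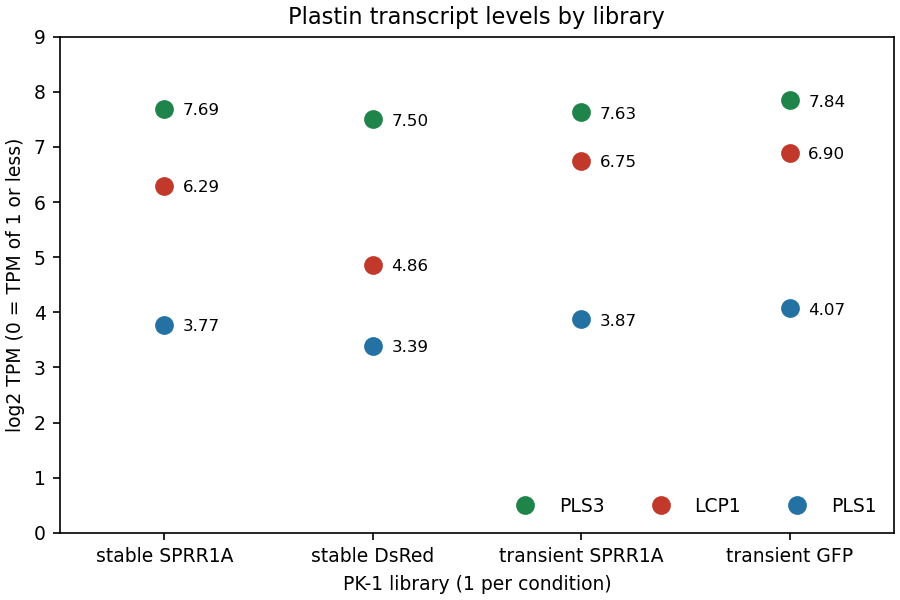
Deposited log2 TPM (vertical axis) of the 3 plastins in each of the 4 libraries (horizontal axis), 1 point per gene and library with its value. LCP1 stands at 4.86 in stable DsRed and between 6.29 and 6.90 in the other libraries, while PLS3 stays between 7.50 and 7.84.

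LCP1 had a log2 TPM of 4.86 in stable DsRed against 6.29 in stable SPRR1A, and 6.90 in transient GFP against 6.75 in transient SPRR1A cells. In TPM these levels were 29.1, 78.3, 119 and 108. The lowest value was that of stable DsRed. LCP1 was picked for the gap between the stable libraries, so nothing is read from which library was lowest. The order of the transient libraries held for the deposited TPM and turned after centring or when SPRR1A was taken out of the total. By level, LCP1 was entity 4738 from the top among the 12964 above 0 in stable DsRed, against 2140 in stable SPRR1A, 1329 in transient SPRR1A and 1347 in transient GFP. Its range over the 4 libraries was 2.03 on the log2 scale, and 0.61 without stable DsRed.

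PLS1 had a log2 TPM of 3.39 in stable DsRed against 3.77 in stable SPRR1A, and 4.07 in transient GFP against 3.87 in transient SPRR1A cells, or 10.5, 13.6, 16.8 and 14.6 TPM. In the deposited values its order of libraries was that of LCP1, from stable DsRed up to transient GFP, over a range of 0.69, which was 0.30 without stable DsRed.

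PLS3 had a log2 TPM of 7.50 in stable DsRed against 7.69 in stable SPRR1A, and 7.84 in transient GFP against 7.63 in transient SPRR1A cells, or 181, 206, 229.8 and 198 TPM. Here too stable DsRed was lowest and transient GFP highest, but the range was 0.34, which was 0.22 without stable DsRed. In the deposited values stable SPRR1A lay above transient SPRR1A. Median log2 differences over entities at TPM 5 or more in both libraries ran the same way. They were 0.06 for stable SPRR1A minus stable DsRed, -0.18 for transient SPRR1A minus transient GFP and 0.12 for transient GFP minus stable DsRed. The share of entities with this order of libraries was not counted. All 3 members were above a TPM of 5 in all 4 libraries, so none was affected by the floor of the deposited values.

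The makeup of the plastin pool followed LCP1. Summed over the 3 genes, plastin TPM was 221 in stable DsRed against 298 in stable SPRR1A, and 366 in transient GFP against 320.1 in transient SPRR1A cells. LCP1 made up 13.2% of it in stable DsRed against 26.3% in stable SPRR1A, and 32.6% in transient GFP against 33.7% in transient SPRR1A. PLS3 made up 82.1%, 69.1%, 62.8% and 61.8% in the same order, while the share of PLS1 was between 4.57% and 4.74%. The ratio of PLS3 to LCP1 was 6.23 in stable DsRed, 2.63 in stable SPRR1A, 1.93 in transient GFP and 1.83 in transient SPRR1A cells.

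**Figure D2:**
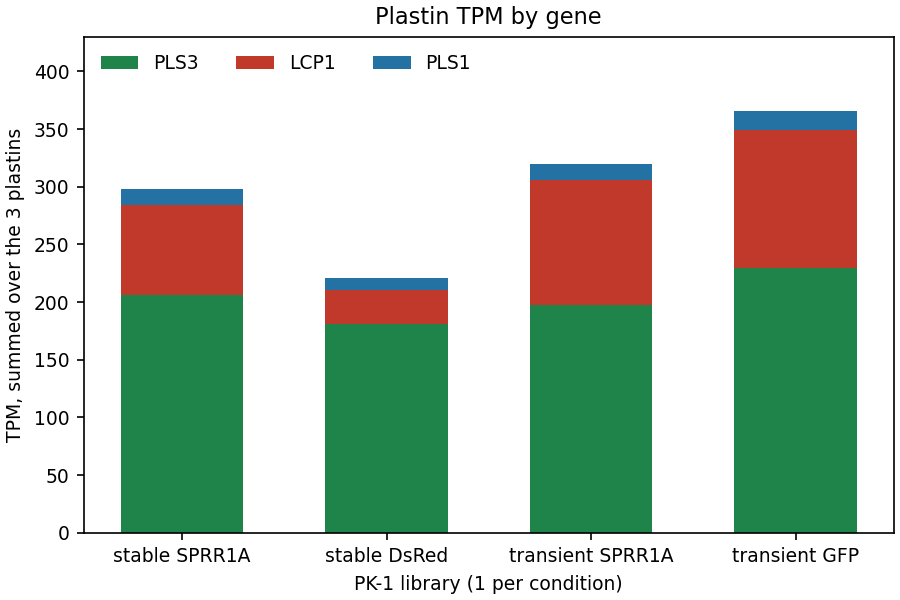
TPM (vertical axis) of PLS3, LCP1 and PLS1 stacked for each of the 4 libraries (horizontal axis). The LCP1 part is 29.1 TPM in stable DsRed and 78.3 to 119 TPM in the others, and the whole bar runs from 221 to 366 TPM.

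Stable SPRR1A was then compared with stable DsRed, with a 2-fold threshold (a log2 difference above 1 or below -1) as used in the study. LCP1 had a log2 difference of 1.43 (2.69-fold, 49.2 TPM higher), PLS1 of 0.38 (1.30-fold) and PLS3 of 0.18 (1.14-fold). So 1 of the 3 members was called higher and none lower, where of all 13310 entities above 0 in at least 1 stable library 0.526% were called higher and 0.421% lower. The rule used this contrast, so nothing is read from that count. Among the 9835 entities at TPM 5 or more in both libraries, the median log2 difference was 0.06 and the SD 0.17. LCP1 was entity 1 from the top in that order, PLS1 entity 304 and PLS3 entity 2141.

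Just behind LCP1 in that order came COL4A2, a chain of basement membrane type IV collagen, with a log2 difference of 1.42, and KRT4, a keratin of stratified epithelium, with 1.02. TMPRSS11E, a membrane serine protease, with 0.91, SLC2A3, a glucose transporter, with 0.90, and ACKR3, an atypical chemokine receptor, with 0.88, lay under the threshold. Of 9658 entities at TPM 5 or more in all libraries, only LCP1 and COL4A2 were over 2-fold lower in stable DsRed than in each other library. This pattern was looked for after the values were seen. Such entities numbered 4 for stable SPRR1A, 1 for transient SPRR1A and 0 for transient GFP. Entities over 2-fold above each other library numbered 1 for stable SPRR1A, 1 for stable DsRed, 0 for transient SPRR1A and 3 for transient GFP. Standing apart in 1 library was thus not particular to stable DsRed. COL4A2 had a log2 TPM of 2.63 in stable DsRed against 4.05 in stable SPRR1A, and 4.10 in transient GFP against 3.98 in transient SPRR1A cells. KRT4 had another pattern, with 5.05, 6.07, 3.80 and 3.68 in the same order.

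In the transient libraries, which the rule did not use, no member passed the threshold. Between transient SPRR1A and transient GFP cells LCP1 had a log2 difference of -0.15, PLS1 of -0.20 and PLS3 of -0.22. The median over the 10154 entities at TPM 5 or more in both libraries was -0.18, with an SD of 0.19. Relative to that median, the differences were 0.04 for LCP1, -0.02 for PLS1 and -0.03 for PLS3, so the sign of LCP1 depended on the centring. None of the 3 was past the threshold, where 0.19% of 13717 entities were called higher (26) and 0.7% lower (96). After centring on the median, 52 entities were higher and 56 lower. SPRR1A itself, the check of the labels, had a log2 TPM of 0.75 in stable DsRed against 10.93 in stable SPRR1A, and 3.56 in transient GFP against 16.60 in transient SPRR1A cells.

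**Figure D3:**
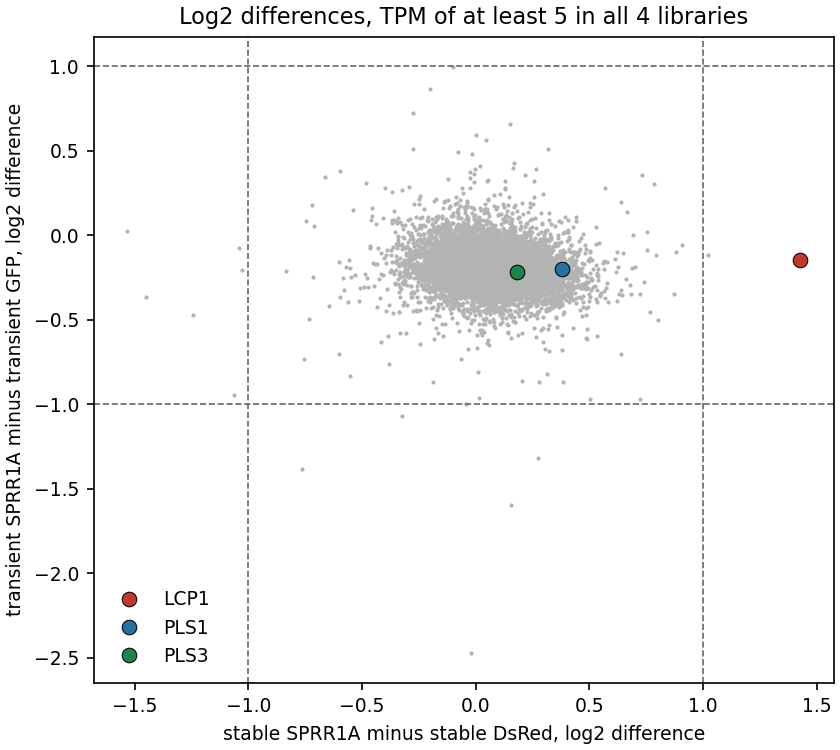
Log2 difference between SPRR1A and control in the stable model (horizontal axis) and in the transient model (vertical axis) for entities at TPM 5 or more in all 4 libraries, SPRR1A left out, with the plastins in colour and dashed lines at the 2-fold threshold. LCP1 lies at 1.43 and -0.15, next to COL4A2 (not marked) at 1.42 and -0.13, while PLS1 and PLS3 lie within the cloud.

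Subtracting the transient from the stable log2 difference gave 1.57 for LCP1, 0.58 for PLS1 and 0.40 for PLS3, beside a median of 0.24 over the 9658 entities at TPM 5 or more in all libraries. LCP1 was entity 5 from the top in that order, and 27 entities were above 1. These values could not be tested with 1 library per condition.

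The control libraries carried no SPRR1A vector and differed in vector, fluorescent protein, transfection and culture. Between transient GFP and stable DsRed cells LCP1 had a log2 difference of 2.03 (4.10-fold), PLS1 of 0.69 and PLS3 of 0.34. This comparison shares the stable DsRed library with the stable model, so its value for LCP1 is not independent of the choice of the gene. 1 of the 3 members was called, where 6.86% of 13761 entities were called higher and 0.661% lower. Among the 9810 entities at TPM 5 or more in both, LCP1 was entity 22 from the top, PLS1 entity 938 and PLS3 entity 2838, with a median of 0.12 and an SD of 0.42.

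The SPRR1A libraries of the 2 models were closer for LCP1. Between transient SPRR1A and stable SPRR1A cells the log2 difference was 0.46 for LCP1, 0.10 for PLS1 and -0.06 for PLS3, and none was past the threshold. Of 13549 entities, 2.61% were called higher (354) and 0.974% lower (132), or 471 and 90 after centring. The median over 9843 entities was -0.11, and relative to it the members had 0.57, 0.22 and 0.06, so PLS3 changed sign.

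Whether LCP1 transcripts came with those of other cells was looked at with marker lists. Of 16 leukocyte markers, 12 were listed at 0 in all 4 libraries, among them PTPRC (CD45), ITGB2, CD53 and SPI1. The 4 above 0 were ARHGDIB (log2 TPM 9.21 to 9.69), RAC2 (8.22 to 8.78), CORO1A (1.51 to 1.79) and LAPTM5 (0.40 to 2.15). The summed TPM of the list was 1117 in stable DsRed against 1128 in stable SPRR1A, and 1105 in transient GFP against 1007 in transient SPRR1A cells. LAPTM5, a lysosomal membrane protein, had its lowest value in stable DsRed and its highest in transient GFP like LCP1, and its log2 difference was 0.58 (stable) and -0.29 (transient). The part of cells with LAPTM5 transcripts in the LCP1 values was not tested, and in bulk RNA fewer cells of a type and less RNA per cell cannot be told apart. No leukocyte marker was past the threshold in either model. Between the controls LAPTM5 was, with a log2 difference of 1.75 beside 2.03 for LCP1, but it stood at 1.32 TPM in stable DsRed, close to the floor. RAC2 had 0.48, CORO1A 0.25 and ARHGDIB -0.28 in that comparison, where 6.86% of all entities were called higher. All 5 endothelial markers and 8 of 9 fibroblast markers were listed at 0 in all libraries, and COL1A1 had a log2 TPM of 1.96 to 2.62. Of 10 epithelial markers, 9 were above 0 in every library, led by KRT18 (12.36 to 12.94) and KRT7 (12.20 to 12.82), and their summed TPM was 19067 to 27282. MUC1 was listed at 0 in stable DsRed and had at most 0.90 elsewhere.

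Other actin bundlers and crosslinkers were measured for comparison. Of 15 listed genes, 6 were at 0 in all libraries, including VIL1 (villin) and FSCN2, and 0 of the 9 above 0 were past the threshold in either model. Their median log2 difference was 0.04 (stable) and -0.18 (transient), beside 0.07 and -0.19 over all entities above 0. FSCN1 (fascin), the bundler of filopodia and the most abundant of the list, had a log2 TPM of 9.70 in stable DsRed against 9.67 in stable SPRR1A, and 9.39 in transient GFP against 9.18 in transient SPRR1A cells. Its stable log2 difference was -0.03, and both stable libraries lay above both transient ones. ACTN1, a non-muscle alpha-actinin, had 7.47, 7.70, 7.95 and 7.76 in the same order, and ACTN4, the other non-muscle form, 8.83, 8.90, 9.15 and 8.97. FLNA, the main filamin, had 9.30, 9.22, 9.23 and 9.06. Together with these genes the plastins formed a pool of 2246 to 2563 TPM, of which LCP1 was 1.21% in stable DsRed and 3.14% to 4.80% in the other libraries, and PLS3 was 7.51% to 8.97%.

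**Figure D4:**
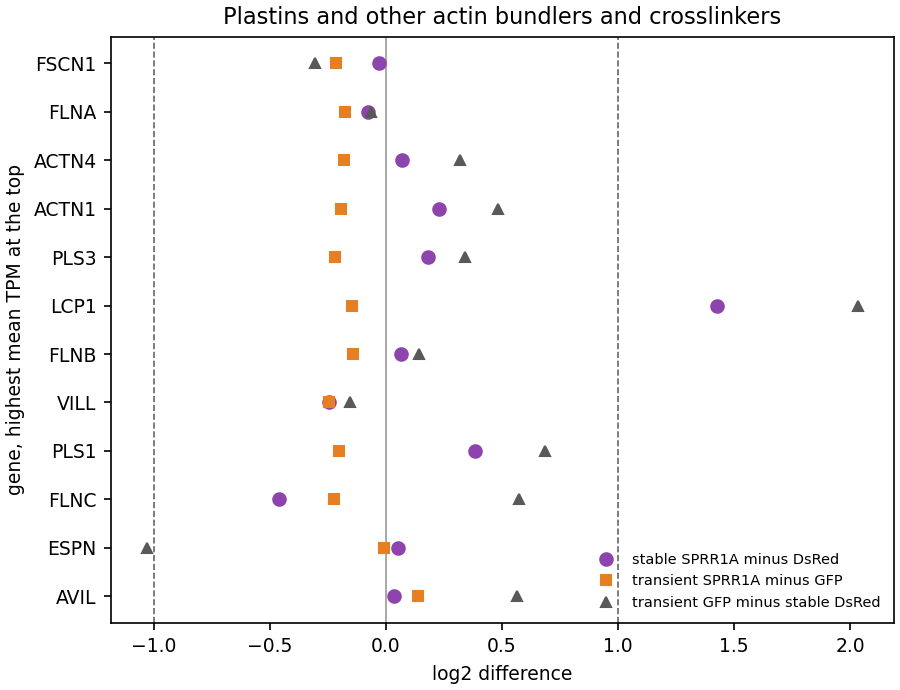
Log2 difference (horizontal axis) for the 3 plastins and the 9 other bundlers and crosslinkers above 0 (vertical axis, by mean TPM), in the stable model, the transient model and between the controls, with dashed lines at the 2-fold threshold. LCP1 alone lies past 1, at 1.43 and 2.03, and ESPN lies at -1.03 between the controls.

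ESPN (espin), a bundler of microvilli and stereocilia, was the only one of these 9 genes called between the controls, with a log2 difference of -1.03. It had a log2 TPM of 1.61 and 1.56 in the stable and 0.52 and 0.53 in the transient libraries, SPRR1A first. In TPM both transient values were 1.44, close to the floor.

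The microvillus and brush border genes, in which PLS1 belongs by function, had 0 of 11 genes above 0 past the threshold in either model. Another 10 were listed at 0 in all libraries, including MYO1A, CDHR2 and USH1C, parts of the intestinal brush border. EZR (ezrin), which ties actin to the membrane, had a log2 difference of 0.01 (stable) and -0.18 (transient), and SLC9A3R1, its scaffold partner, had 0.32 and -0.17. EPS8L2, of the EPS8 family of actin regulators, had -0.03 and -0.14, and BAIAP2L1, which shapes membrane protrusions, had 0.05 and -0.09. The median of the list was 0.05 (stable) and -0.18 (transient).

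Genes that share the tandem calponin homology domains, 16 in all, had 0 past the threshold in either model. In the stable model all 11 genes above 0 had a log2 difference above 0, with a median of 0.10, beside 0.07 over all entities. The highest was UTRN (utrophin) at 0.50, below LCP1 and above PLS1 and PLS3. SPTBN1, a spectrin chain, had 0.21 (stable) and -0.18 (transient), PLEC (plectin) had 0.13 and -0.10, MACF1, which links actin and microtubules, had 0.24 and -0.19, and DST (dystonin) had 0.07 and -0.23. Between the controls the median of these genes was 0.47, beside 0.18 over all entities, and none was past the threshold.

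Of 35 genes of actin filament turnover, all above 0, 0 were past the threshold in either model, near the share of all entities given above. The median log2 difference was 0.08 (stable) and -0.17 (transient). ACTB, cytoplasmic beta-actin and the substrate of the plastins, had a log2 TPM of 12.86, 12.89, 12.63 and 12.44 in stable DsRed and SPRR1A and in transient GFP and SPRR1A cells, in that order. Gamma-actin (ACTG1) had 11.83, 11.93, 11.94 and 11.75. The actin monomer-binding thymosins TMSB10 and TMSB4X had stable differences of -0.15 and 0.17.

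Kinases of the families that phosphorylate L-plastin were measured at moderate levels. Of 8 listed, PRKCB was at 0 and none of the other 7 was past the threshold in any of the 4 comparisons. RPS6KA1, a ribosomal S6 kinase, had log2 differences of -0.04 (stable) and -0.19 (transient). The protein kinase A subunits PRKACA and PRKACB had stable differences of 0.09 and 0.38 and transient ones of -0.14 and -0.32, and PRKCD, protein kinase C delta, had 0.03 and -0.17.

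Transcription factors with a known or proposed link to the L-plastin promoter were also listed. None of the 8 listed genes of the SP and AP-1 families was past the threshold in either model. FOSL1, JUNB, JUN and FOSL2 had stable log2 differences of -0.11, -0.15, 0.04 and 0.22 and transient ones of -0.12, -0.16, -0.17 and -0.23. Between the controls FOS (1.83) and FOSL2 (1.23) were past the threshold and JUN (0.97) lay just under it. FOS had a log2 TPM of 1.50 in stable DsRed against 1.55 in stable SPRR1A, and 3.33 in transient GFP against 3.42 in transient SPRR1A cells. In TPM the stable values of FOS were 2.82 and 2.92, near the floor. A part of these factors in the LCP1 values was not tested.

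No neighbouring protein-coding gene of a plastin was past the threshold in either model. Of the 3 on each side of LCP1, CPB2, SIAH3, LRRC63 and RUBCNL were listed at 0 in all libraries. ZC3H13, an RNA-binding protein gene 73177 bp away, had a log2 difference of 0.30 (stable) and -0.20 (transient), and LRCH1 had 0.31 and -0.26. Both also had their lowest value in stable DsRed, at a log2 TPM of 3.60 and 2.06, though ZC3H13 was at 3.63 in transient SPRR1A cells. Next to PLS1, ATR, the DNA damage checkpoint kinase, had 0.25 and -0.25, XRN1, an RNA exonuclease, had 0.35 and -0.41, and GK5 had 0.39 and -0.34, beside 0.38 and -0.20 for PLS1 itself. On the other side, PCOLCE2, which enhances procollagen processing, had -0.04 and -0.20. TRPC1, a cation channel, was listed at 0 in both stable libraries and had a transient difference of -0.53, and PAQR9 was listed at 0 in all libraries. All 6 neighbours of PLS3 were listed at 0 in all 4 libraries.

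Profiles over the 4 libraries were compared by the Euclidean distance between log2 values centred on each gene's mean, among 12315 other entities above 0 in all libraries that are not small RNAs by name. The nearest to LCP1 were NID2, a nidogen of basement membranes, at a distance of 0.20, ANXA10, an annexin (0.35), GPR157, an orphan receptor (0.38), SLC22A15, a carrier protein (0.41), and AOC1, diamine oxidase (0.43). Within a distance of 0.5 there were 16 entities for LCP1, 6264 for PLS1 and 9341 for PLS3. NID2 had a log2 TPM of 0.08, 1.46, 2.26 and 1.84 in stable DsRed and SPRR1A and in transient GFP and SPRR1A cells, in that order. Its level was thus far below that of LCP1 and close to the floor in stable DsRed. SLC22A15 (0.02) and AOC1 (0.28) were also close to the floor in stable DsRed. The nearest to PLS1 were OSBPL11, NUP58, SBF2-AS1, LINC00869 and MECOM, at 0.02 to 0.03, and to PLS3 UBA2, ANKRD28, DUSP28, SLAIN2 and MAP2K4, at 0.01 to 0.02. These are likenesses over 4 libraries, of which LCP1 was chosen for the stable pair.

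**Figure D5:**
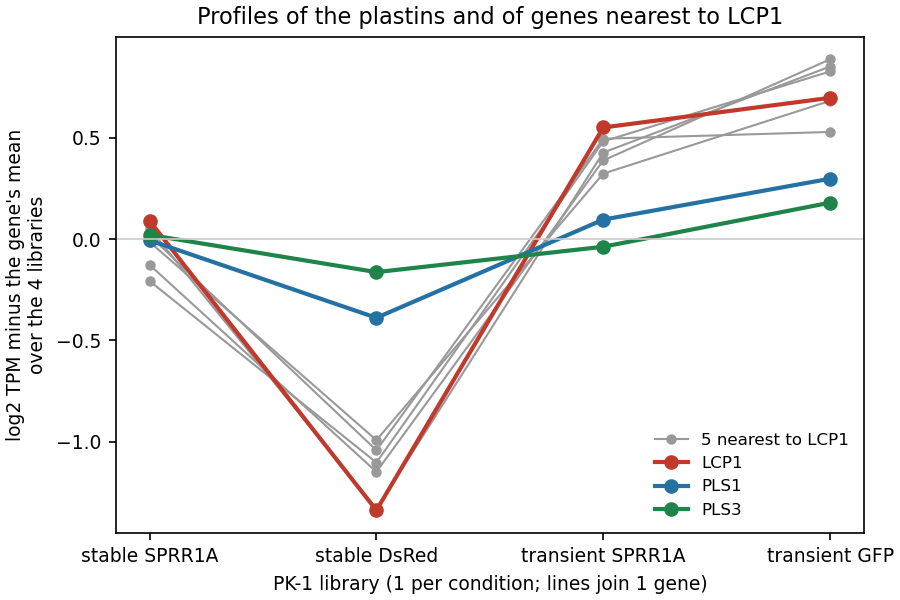
Log2 TPM minus the gene's own mean over the 4 libraries (vertical axis) by library (horizontal axis) for the 3 plastins and the 5 entities nearest to LCP1, with lines joining the values of 1 gene. LCP1 and its nearest entities dip in stable DsRed and peak in transient GFP in the deposited values, while PLS1 and PLS3 keep the lowest and highest library over ranges of 0.69 and 0.34.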

How the data were processed

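RNA of 4 PK-1 libraries, 1 per condition, was sequenced in paired-end mode from stranded mRNA libraries. Strand NGS, run with default settings, was used by the authors for alignment to hg38 transcripts and for TPM normalization, and the deposited unit is log2 TPM per gene. The software version, the annotation release and the treatment of reads matching several genes are not given in the sources used here. No deposited value lies below 0, so 0 stands for a TPM of 1 or less. Depth in reads is unknown.

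Log2 differences were taken between deposited values and called past 2-fold. With 1 library per condition no test was possible. The members and gene lists were chosen with earlier results of these data known. Named genes are the members, SPRR1A, the 4 most abundant genes of each list and any past 2-fold in a model, the 5 nearest profiles, the 3 protein-coding neighbours per side and the entities ranked next to LCP1; others (PTPRC, ITGB2, CD53, SPI1, MUC1, VIL1, FSCN2, ESPN, MYO1A, CDHR2, USH1C, UTRN, PRKCB and FOS) were picked after their values were seen. NHERF1 is listed as SLC9A3R1. Positions and promoters came from RefSeq (GRCh38.p14, matched by Entrez Gene identifier for 3 of 3 members) and transcripts from GENCODE 44 (hg38). Alternatives were log2(TPM + 1), log2(TPM + 0.1), SPRR1A left out of the TPM total, centring on the median difference at TPM 5 or more in both libraries, that filter, and floor values set to TPM 0. The calculations were checked on simulated data. Python 3.11.15, numpy 2.4.6, pandas 2.3.3, matplotlib 3.10.9 and Biopython 1.88 were used.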

Additional observations from a re-analysis of the deposited data

Results flagged for a closer look

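For all 3 plastins SPRR1A cells were above their control in the stable model and below it in the transient one, a gap that could not be tested. The stable minus the transient log2 difference was 1.57 for LCP1, 0.58 for PLS1 and 0.40 for PLS3. Opposite signs of this kind were the common case, with 6034 of 9658 entities (62.5%) at TPM 5 or more in all libraries showing them. After centring on the medians, LCP1 had 1.37 (stable) and 0.04 (transient).

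Of the other genes named, 8 had opposite signs and a gap between the models above 1 on the log2 scale, also not tested. The signs are those of the deposited values, and taking off the transient median of -0.18 turns the transient differences of COL4A2 (-0.13), KRT4 (-0.12) and ANXA10 (-0.03) positive, as it does for LCP1. The gap was 1.81 for NID2, 1.55 for COL4A2, 1.52 for GPR157, 1.43 for SLC2A3, 1.34 for AOC1, 1.24 for SLC22A15, 1.14 for KRT4 and 1.09 for ANXA10. Of these, NID2, GPR157, AOC1, SLC22A15 and ANXA10 were selected for a profile near that of LCP1, and COL4A2, KRT4 and SLC2A3 for their stable difference. NID2, AOC1 and SLC22A15 were close to the floor in stable DsRed.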

How the results depend on the processing

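No paired analysis was possible because there is 1 library per condition. Under log2(TPM + 1) and log2(TPM + 0.1) each member kept its direction and its side of the 2-fold threshold in all 4 comparisons, and LCP1 in the stable model stayed between 1.37 and 1.43 under these, centring and SPRR1A left out of the total. With transient GFP in place of stable DsRed as the control, chosen after seeing the data and confounded with the model, stable SPRR1A gave -0.61 for LCP1, -0.30 for PLS1 and -0.16 for PLS3. With SPRR1A left out of the total or after centring, the transient difference of LCP1 turned to 0.0042 or 0.036, and that of PLS3 between the SPRR1A libraries to 0.089 or 0.056. Centring, which shifts each difference by the library median, turned the median of the actin lists to 0.0044 in the transient model and 0.063 between the SPRR1A libraries.

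Counts past 2-fold moved more, higher first. Under log2(TPM + 1) they were 24 and 17 (stable), 5 and 39 (transient), 551 and 44 (controls), and 195 and 60 (SPRR1A libraries). At TPM 5 or more in both they were 3 and 6, 1 and 5, 315 and 24, and 110 and 27 in the same order. Centring gave 52 and 56 in the transient model. Among the list genes besides the plastins, 4 of 96 above 0 were past the threshold between the controls, or 1 with that filter. Between the SPRR1A libraries it was 2 of 97, or 1 under log2(TPM + 1), 1 after centring and 0 with that filter. Of all entities, 6.86% were called higher and 0.661% lower between the controls, and 2.61% and 0.974% between the SPRR1A libraries. The counts of list genes were 0 in both models under all alternatives run. Setting floor values to TPM 0 left the plastin shares as they were, since no member is at the floor.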
